A study of Mus musculus with 14 samples.

Results

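The mitochondrial ribosomal protein genes were taken as the mouse protein-coding genes whose symbol is Mrpl or Mrps followed by a number. There were 78 of them among the 21887 protein-coding genes of the reference table, 49 with large-subunit names (Mrpl) and 29 with small-subunit names (Mrps), spread over 17 chromosomes. H3K27ac, acetylation of lysine 27 on histone H3 and a mark of active promoters and enhancers, was read at the ends of these genes in CD11b+ tumor-associated macrophages. The cells had been sorted from orthotopic brain tumours grown in NSG mice from T387, a human glioblastoma (GBM) xenograft. NSG mice lack mature T, B and natural killer cells and keep their myeloid cells, so the macrophages came from a host without adaptive immunity. The treated group received Pracinostat, an inhibitor of histone deacetylases, by mouth at 30 mg/kg in 4 doses weekly over 3 weeks, starting 7 days after the tumour was implanted, and the DMSO group received the solvent mixture alone. The labels conflict on the dose, because the text on drug preparation gives 3 mg/kg. H3K27ac antibody was used for 3 DMSO and 4 pracinostat libraries, and non-specific IgG for as many again. All 14 libraries shared the host strain, the tumour and the CD11b sort, and no label used here states the age or sex of the mice.

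The mitochondrial ribosome translates the few messenger RNAs encoded in mitochondrial DNA, all of which specify subunits of the respiratory chain and ATP synthase. Its ribosomal RNAs are mitochondrial, while every one of its proteins is encoded in the nucleus, translated in the cytosol and imported. The genes are housekeeping genes, and promoters of this class are known to carry CpG islands and sites for the ETS factor GABPA, for NRF1 and for YY1, factors that link nuclear transcription to mitochondrial function. Macrophages draw on respiration to different degrees in different activation states.

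Promoter sequences are shown first. The acetylation described here was read within 1 kb of either annotated gene end, which can lie away from the promoter start. RefSeq (GRCm38.p6, the assembly that mm10 names) gave a start for 69 of the 78 genes. The 250 bases before the start are printed 5′ to 3′ on the strand of the gene. Capitals mark CCGGAAG (ETS core), the NRF1 pattern (GCGCA, any base, then GCGC), AANATGGCG (YY1), CCAAT (the CCAAT box), TATAAA (the TATA box), TGACGTCA (cyclic AMP response element) or CACGTG (E-box), on either strand, so that ATTGG marks a CCAAT read from the other strand. Mrpl41 had the highest H3K27ac rank of the genes, Mrpl43 carries a pair of ETS cores, Mrpl39 carries an NRF1 match, and Mrpl33 lies in a stretch of low GC content.
Mrpl41 (chr2:24975099-24975348, minus strand): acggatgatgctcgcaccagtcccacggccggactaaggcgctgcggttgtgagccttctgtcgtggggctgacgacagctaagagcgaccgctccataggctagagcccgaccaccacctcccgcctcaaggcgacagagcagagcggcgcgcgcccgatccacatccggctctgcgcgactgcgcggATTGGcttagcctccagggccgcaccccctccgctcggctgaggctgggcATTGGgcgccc
Mrpl43 (chr19:45006443-45006692, minus strand): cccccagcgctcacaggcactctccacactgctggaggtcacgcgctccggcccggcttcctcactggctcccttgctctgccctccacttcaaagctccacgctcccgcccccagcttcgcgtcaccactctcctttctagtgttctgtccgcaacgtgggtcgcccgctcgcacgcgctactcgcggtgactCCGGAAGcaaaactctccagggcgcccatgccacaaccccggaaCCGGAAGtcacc
Mrpl39 (chr16:84735245-84735494, minus strand): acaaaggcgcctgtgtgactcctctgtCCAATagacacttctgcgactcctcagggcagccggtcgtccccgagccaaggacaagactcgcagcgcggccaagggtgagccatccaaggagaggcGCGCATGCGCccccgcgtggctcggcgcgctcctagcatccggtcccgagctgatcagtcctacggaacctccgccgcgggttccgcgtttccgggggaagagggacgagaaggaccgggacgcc
Mrpl33 (chr5:31613701-31613950, plus strand): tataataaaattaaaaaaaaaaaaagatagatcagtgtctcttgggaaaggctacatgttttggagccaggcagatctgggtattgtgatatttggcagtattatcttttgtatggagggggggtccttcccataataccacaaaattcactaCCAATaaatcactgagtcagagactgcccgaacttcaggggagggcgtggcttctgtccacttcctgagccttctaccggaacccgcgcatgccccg
The next stretches lie between the annotated 5′ ends of 2 genes that face away from each other, and each is printed whole on the strand of the gene named first. They show how little DNA separates a mitochondrial ribosomal protein gene from its neighbour.
Mrps11 and Mrpl46 (chr7:78783090-78783130, plus strand): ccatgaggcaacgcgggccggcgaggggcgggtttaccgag
Mrps18b and Ppp1r10 (chr17:35916441-35916511, minus strand): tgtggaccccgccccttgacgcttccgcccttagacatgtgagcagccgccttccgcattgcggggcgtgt
Mrpl51 and Ncapd2 (chr6:125192101-125192199, plus strand): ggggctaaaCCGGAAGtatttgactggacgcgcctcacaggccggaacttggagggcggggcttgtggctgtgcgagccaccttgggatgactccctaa
Mrps12 and Sars2 (chr7:28741822-28741956, minus strand): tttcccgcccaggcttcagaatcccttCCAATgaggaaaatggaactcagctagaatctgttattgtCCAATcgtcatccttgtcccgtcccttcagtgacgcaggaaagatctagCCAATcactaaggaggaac
Mrpl32 and Psma2 (chr13:14613038-14613241, minus strand): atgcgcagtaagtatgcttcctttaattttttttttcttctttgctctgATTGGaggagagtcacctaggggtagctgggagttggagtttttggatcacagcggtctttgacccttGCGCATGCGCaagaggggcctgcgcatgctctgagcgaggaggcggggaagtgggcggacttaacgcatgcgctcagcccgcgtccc

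Of the 69 genes with a start, 27 (39.1%) had a gene on the opposite strand whose annotated 5′ end lay within 1 kb of theirs, an arrangement found for 10.3% of all 17492 genes with a start. Mrps11 and Mrpl46, a small-subunit and a large-subunit gene, start 42 bp apart with 41 bases between them, and they had the same value in every library because their windows hold the same summits. Mrps12, which encodes a protein of the decoding centre, starts 136 bp from Sars2, the mitochondrial seryl-tRNA synthetase. Mrpl43 starts 779 bp from Twnk, the helicase that copies mitochondrial DNA, and the annotated 5′ ends of Mrpl36 and Ndufs6, a subunit of respiratory complex I, lie 21 bp apart. Mrpl47 is paired with Ndufb5, another complex I subunit, at 302 bp. Other neighbours have no mitochondrial role, such as Psma2, a proteasome subunit 205 bp from Mrpl32, and Hira, a histone chaperone 113 bp from Mrpl40. Windows were shared with at least 1 other protein-coding gene by 44 of the 78 (56.4%), against 24.8% of all genes, and acetylation in a shared window cannot be assigned to either gene.

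An ETS core was found within the 250 bases before and 50 after the start in 24 of 69 genes (34.8%), against 11.9% of the 17492 windows of the same length. The NRF1 letters were found in 13 (18.8% against 6.66%) and the YY1 letters in 11 (15.9% against 3.28%). At least 1 of these 3 was present in 40 of 69 (58.0%), against 19.5% of all windows. CCAAT was as frequent as elsewhere, in 27 genes (39.1% against 39.2%), and TATAAA was found in 4 (5.80% against 13.3%). The response element TGACGTCA was present in 2 (2.90% against 2.33%) and the E-box in 5 (7.25% against 7.91%). None of these patterns contains another, although 2 matches can overlap in a promoter. The median ratio of observed to expected CpG was 0.818 against 0.577, with a GC content of 58.3% against 56.3%. These are letters in a window and do not show binding. In Mrpl33 the ETS core spans the start and is therefore not in capitals above.

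Depth is known through the summit lists alone, as no label or header used here states the reads obtained. A summit is the single base at the top of a called peak. The H3K27ac lists held 208401 to 291042 summits except in DMSO replicate 2, which held 53503, of which 65.3% had the lowest score of that list. The labels call the libraries biological replicates without naming the animals, so the p-values measure the spread between these libraries. The CD11b+ sort was read against marker lists. The macrophage list (10 genes, 7 marked in all 7 libraries) had a median percentile of 73.7 in DMSO and 83.8 in pracinostat, with Csf1r, Spi1 and Itgam among its genes. The neuron and astrocyte list (6 genes, 0 marked in all 7 libraries) stood at 23.7 and 26.6. Of its genes 2, Snap25 and Syt1, were unmarked in every library, the others were marked in at least 1, and 0 to 33.3% were marked in each library. The neutrophil list had library medians of 45.4, 67.2 and 55.9 in DMSO and of 42.6 to 45.9 in pracinostat. Of its 10 genes 3 were marked in all 7 libraries and 2, Ly6g and Retnlg, in none, and 60 to 80% were marked in each library. The lymphocyte list (7 genes, 0 marked in all 7 libraries) had library medians of 31.4 ± 10.7 (SD, n = 3) in DMSO and 49.6 ± 5.42 (SD, n = 4) in pracinostat, and the oligodendrocyte list (6 genes, 1 marked in all 7) 40.8 ± 9.01 and 22.8 ± 4.67. For the endothelial list (4 genes, 0 marked in all 7) they were 33.4 ± 15.8 and 38.0 ± 13.3, with 25 to 75% of its genes marked in each library.

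A gene was called marked when a summit lay within 1 kb of either end. In the DMSO libraries 77, 59 and 76 of the 78 mitochondrial ribosomal protein genes were marked, and in the pracinostat libraries 76, 76, 74 and 77. DMSO replicate 2 stood apart, and the other 6 libraries marked at least 74 genes each. The share was 90.6 ± 12.97% (SD, n = 3) in DMSO and 97.1 ± 1.61% (SD, n = 4) in pracinostat, against 52.6 ± 12.1% and 59.6 ± 1.45% of all protein-coding genes. With IgG the share was 1.71 ± 1.96% (n = 3) and 2.24 ± 1.61% (n = 4), a count of 0 to 3 genes per library. Of all genes it was 1.85 ± 0.739% and 0.891 ± 0.427%. Windows moved by 100 kb held a summit for 38.9 ± 16.7% and 49.4 ± 2.45% of the genes, which is the rate of H3K27ac in their surroundings.

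A summit was present in all 7 H3K27ac libraries at 58 of the 78 genes (74.4%), against 34.7% of all protein-coding genes. Another 14 were marked in 6 libraries, and each of these lacked a summit in DMSO replicate 2. Without that library, 72 of the 78 (92.3%) were marked in 6 of 6, against 45.1% of all genes. The remaining 6 were Mrpl23, Mrpl24 and Mrpl33, marked in 5 of 7 libraries, Mrps2 and Mrps31, marked in 4, and Mrps23, marked in 2. No mitochondrial ribosomal protein gene was unmarked throughout, whereas 23.1% of all protein-coding genes were. An IgG summit was present in at least 1 library at 10 of the 78 (12.8%, against 8.68% of all genes): Mrpl4, Mrpl12, Mrpl21, Mrpl28, Mrpl39, Mrpl47, Mrpl49, Mrpl50, Mrps2 and Mrps6. Of these, Mrpl47 had one in 2 libraries and the others in 1.

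Because the scores had not been normalized between libraries, each gene was ranked by its highest summit score within a library, and the rank was written as a percentile of all 21887 genes. The median percentile of the 78 genes was 79.3, 76.9 and 77.4 in the DMSO libraries and 79.6, 78.4, 78.9 and 74.9 in the pracinostat libraries. The lowest and the highest of the 7 medians were both from pracinostat libraries, and the groups overlapped. Averaged over 7 libraries, the median gene stood at 78.3, with quartiles of 63.7 and 84.8, where the median of all genes was 44.4. In each library 39 to 46 of the 78 stood above the 75th percentile. Above the 90th, where about 10% of all genes stand by definition, there were 14 to 20 (17.9 to 25.6%). Between 80 and 90 there were 27 genes and between 70 and 80 there were 19. A mean above 90 was reached by 7 (8.97%, against 6.15% of all genes), or by 10 without DMSO replicate 2. By the mean, the interval from 80 to 90 thus held the most genes, while the share above 90 still exceeded that of all genes. The large-subunit names had a median of 78.6 and the small-subunit names of 74.4, and the 81 cytosolic ribosomal protein genes, which serve the other ribosome of the cell, had a median of 80.1.

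**Figure D1:**
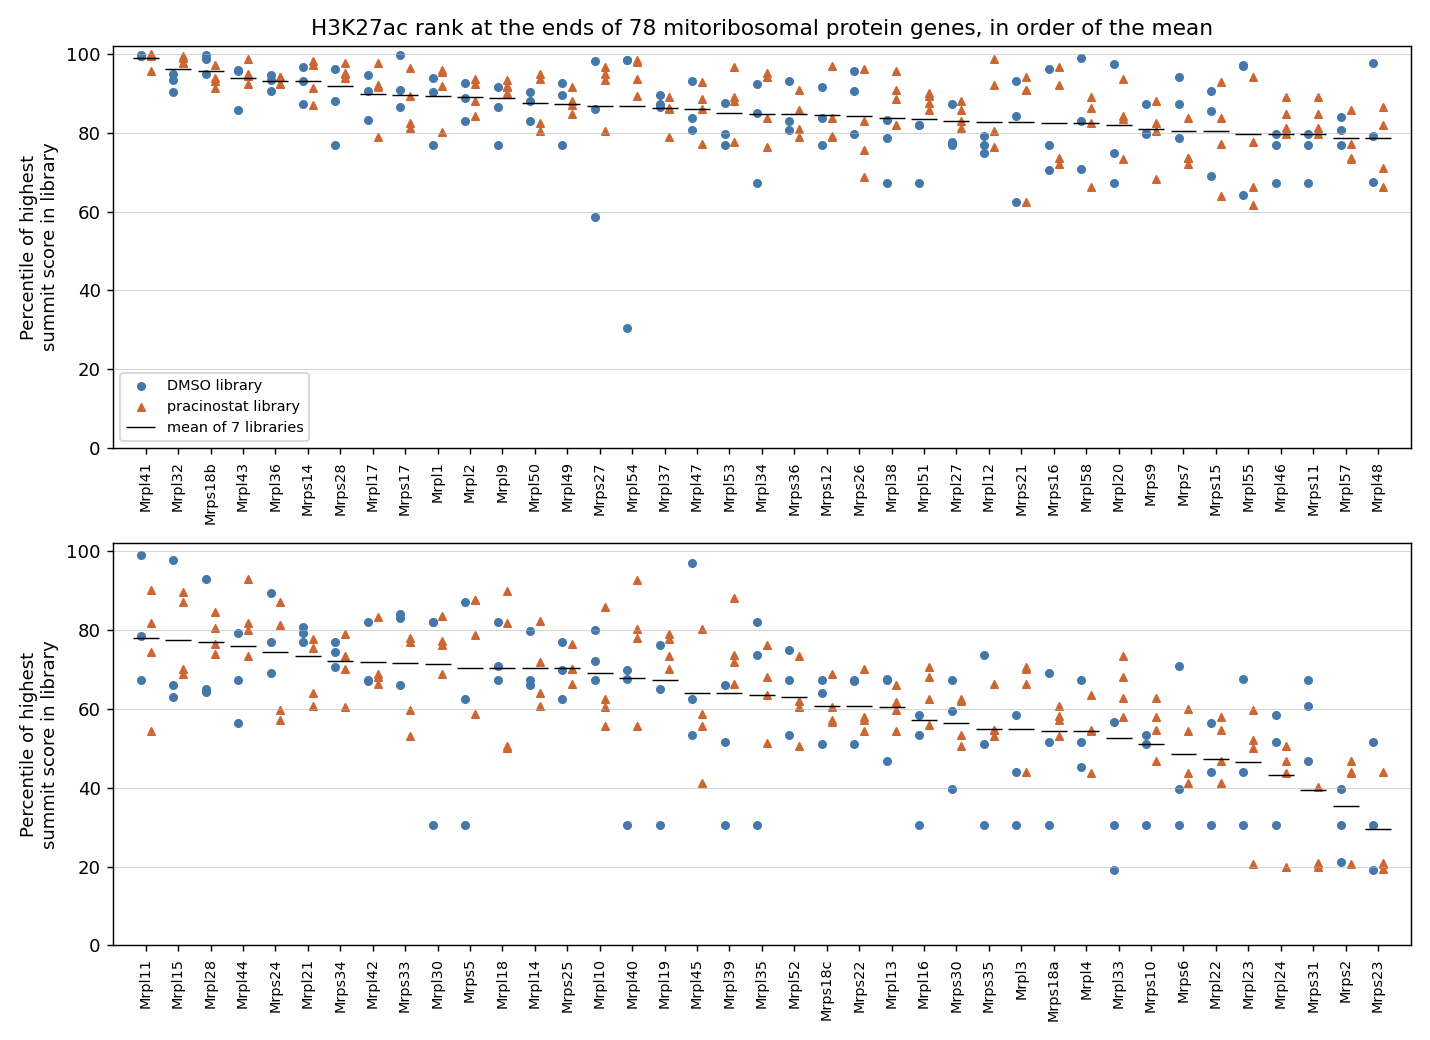
Percentile of the highest H3K27ac summit score at the ends of each of 78 mitochondrial ribosomal protein genes in each library (circles, 3 DMSO; triangles, 4 pracinostat; bars, mean of 7), in order of the mean. Circles at 30.6 are genes without a summit in DMSO replicate 2.

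**Figure D2:**
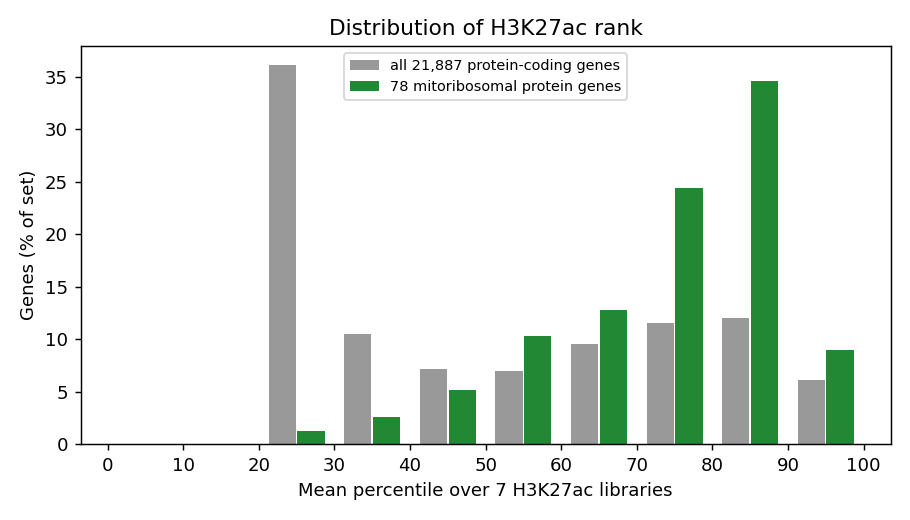
Share of genes in each interval of 10 percentile points of the mean over 7 libraries, for the 78 mitochondrial ribosomal protein genes and all 21887 protein-coding genes. The interval from 80 to 90 holds 27 of the 78, and the interval from 20 to 30 holds 1.

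Mrpl41 had the highest mean, 99.0. Its percentile was 99.7, 99.4 and 99.4 in DMSO and 95.6, 99.4, 99.8 and 99.9 in pracinostat, so it stood above the 95th percentile in every library, and its highest summit lay between 112 bp before and 56 bp after the start. Mrpl32, a zinc-binding protein of the large subunit that the m-AAA protease must cleave before it is assembled, stood at 93.5, 94.8 and 90.2 in DMSO and at 99.0, 97.8, 99.5 and 97.6 in pracinostat. Mrps18b had 99.8, 94.8 and 98.8 in DMSO and 93.0, 91.4, 93.9 and 97.1 in pracinostat. Both groups of Mrps18b overlapped. The next means were those of Mrpl43 (94.0) and Mrpl36 (93.1), the homologue of the smallest bacterial large-subunit protein. The gene-end window of Mrpl36, which it shares with Ndufs6, was among the steadiest, between 90.5 and 94.6 in every library. At its RefSeq start, 2506 bp from the annotated 5′ end, Mrpl36 ranged more widely, from 75.3 in DMSO replicate 2 to 99.2 in pracinostat replicate 4.

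The stalk of the large subunit recruits the translation factors. Mrpl12, its L7/L12 protein, which is also known to bind the mitochondrial RNA polymerase, stood at 79.3, 76.9 and 74.8 in DMSO and at 80.3, 92.1, 98.6 and 76.5 in pracinostat. The pracinostat libraries spread further than the DMSO ones, and the groups overlapped. Mrpl10, which anchors the stalk, averaged 73.1 ± 6.46 (SD, n = 3) in DMSO and 66.1 ± 13.4 (SD, n = 4) in pracinostat, and Mrpl11, at the base of the stalk, 81.6 ± 16.1 and 75.2 ± 15.3. Mrpl58, a peptidyl-tRNA hydrolase built into the large subunit, averaged 84.2 ± 14.1 and 81.0 ± 10.1. For Mrpl58 the highest summit lay at either end of the gene depending on the library, with a median 8874 bp from the start. Mrpl45, which holds the ribosome at the inner membrane, had 53.4, 97.0 and 62.5 in DMSO and 80.3, 41.3, 55.6 and 58.7 in pracinostat. A single DMSO library, replicate 2, stood far above the other six at that gene.

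Among small-subunit names, Mrps12 averaged 84.0 ± 7.32 (SD, n = 3) in DMSO and 84.7 ± 8.47 (SD, n = 4) in pracinostat, and Mrps7, a protein of the subunit's head, 86.7 ± 7.87 and 75.7 ± 5.33. Mrps27, a pentatricopeptide repeat protein, averaged 80.9 ± 20.3 and 91.3 ± 7.45. Mrps18a, Mrps18b and Mrps18c are related proteins that occupy different places in the ribosome, Mrps18a in the large subunit in spite of its name. Their gene-end windows ranked differently: Mrps18b had a mean of 95.5 over 7 libraries, Mrps18c 60.8 and Mrps18a 54.4. Mrps18b shares windows with Atat1 and Ppp1r10, and Mrps18c with Abraxas1 and Helq, so their acetylation cannot be assigned to 1 gene. Mrps18a shares with none. Mrps18b exceeded Mrps18a and Mrps18c in each of the 7 libraries. Mrps30, which also belongs to the large subunit, averaged 55.4 ± 14.1 and 57.1 ± 6.03. Mrps36, now known as a subunit of the 2-oxoglutarate dehydrogenase complex and not a ribosomal protein, averaged 85.6 ± 6.55 and 84.1 ± 5.29.

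The highest acetylation mostly lay at the 5′ end. Over the 455 pairs of a stranded gene and a library that marked it, the highest summit was nearer the 5′ end in 92.7%, against 83.8% of 69964 pairs over all genes. Of 52 genes with strand and a summit in 7 libraries, 41 (78.8%, against 77.4%) kept it at the 5′ end in every library, 11 changed ends between libraries and 0 had it at the 3′ end throughout. For summits at the 5′ end the median position was 62.5 bp downstream of it, against 47 bp for all genes. The 27 genes with an opposite-strand 5′ end within 1 kb had a median percentile of 83.4 and the 42 others with strand 71.7. Some of these pairs, such as Mrpl43 and Twnk, do not face away from each other. Over all genes the same split gave 81.1 and 39.5.

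**Figure D3:**
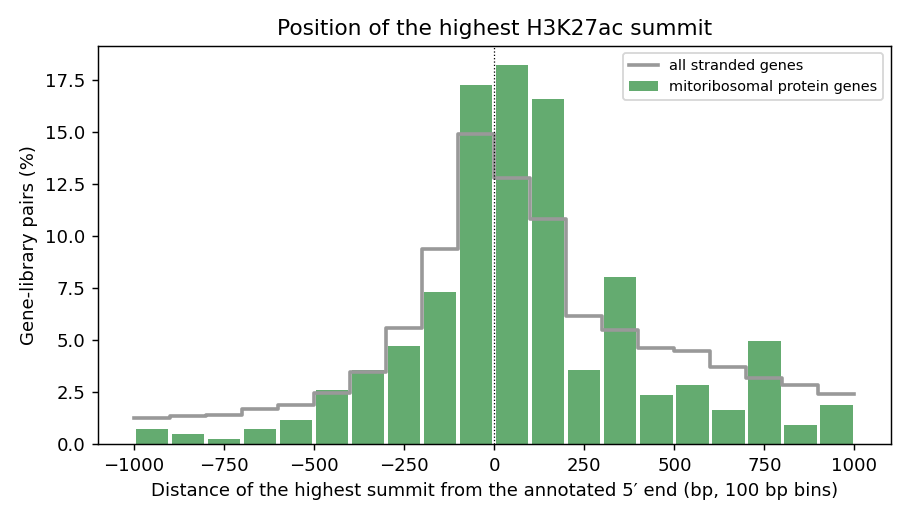
Distance of the highest H3K27ac summit from the annotated 5′ end in bins of 100 bp, as a share of gene-library pairs whose summit lies at that end (bars, mitochondrial ribosomal protein genes; line, all stranded genes). The bin from 0 to 100 bp is the fullest for the mitochondrial ribosomal protein genes, with 77 pairs.

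The lowest-ranked genes in the treatment comparison were Mrps2 (mean 35.3), Mrps31 (39.5), Mrpl24 (43.1), Mrpl23 (46.4) and Mrpl22 (47.3). Mrpl22, Mrpl23 and Mrpl24 encode proteins around the exit of the peptide tunnel. Mrps23 ranked below them at 29.4, with too few marked libraries (2 of 7) for the comparison. In each of these 6 genes every start in the RefSeq promoter table lay more than 500 bp from the annotated 5′ end. The offset was 10282 bp at Mrps23, 2115 bp at Mrps2, 1621 bp at Mrpl22, 1413 bp at Mrpl24, 891 bp at Mrps31 and 565 bp at Mrpl23. When summits were read within 1 kb of the promoter table's starts, a reading added after the values had been seen, the mean rose from 29.4 to 79.7 at Mrps23, from 35.3 to 61.0 at Mrps2, from 39.5 to 65.3 at Mrps31 and from 46.4 to 72.2 at Mrpl23, with ranks taken among the 17492 genes with a start. Mrpl18, offset by 1696 bp, went from 70.4 to 94.8.

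The 250 bases before the inner start of Mrps23 hold none of the searched letters, and an ETS core begins 15 bases after the start.
Mrps23 (chr11:88204138-88204387, plus strand): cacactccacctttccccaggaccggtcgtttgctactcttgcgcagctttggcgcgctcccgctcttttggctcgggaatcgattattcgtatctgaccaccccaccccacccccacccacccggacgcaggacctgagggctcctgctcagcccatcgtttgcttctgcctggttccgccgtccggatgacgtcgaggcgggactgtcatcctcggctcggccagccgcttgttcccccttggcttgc
Summits near this start gave percentiles of 89.7, 66.1 and 68.6 in DMSO and of 92.5, 89.3, 82.3 and 69.6 in pracinostat, so the gene was marked there in 7 of 7 libraries. Over the 11 genes with such an offset the median went from 47.3 at gene ends to 67.6 at table starts, and over the other 58 from 80.1 to 78.3. At table starts 54 of 69 genes (78.3%) were marked in 7 of 7 libraries, against 35.7% of all 17492.

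**Figure D4:**
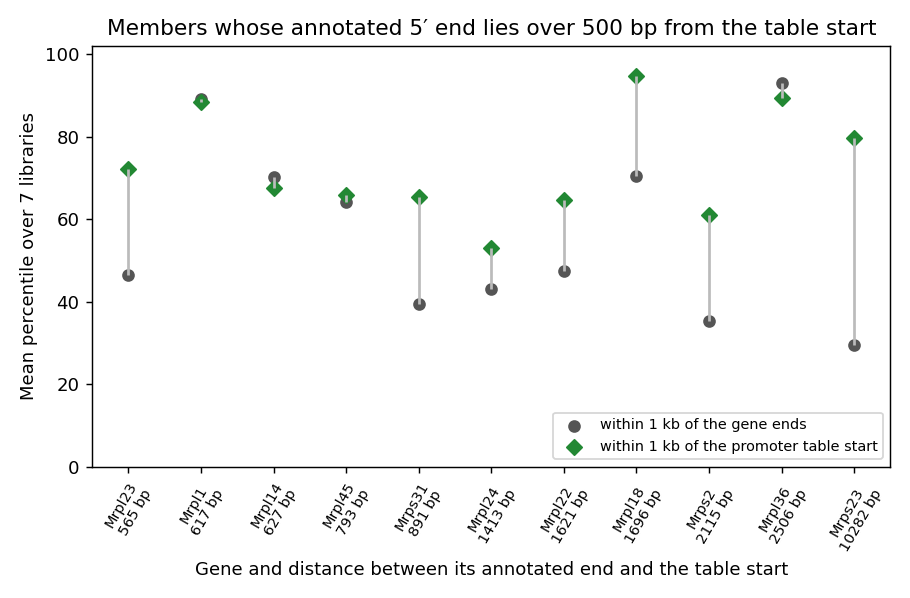
Mean percentile over 7 libraries within 1 kb of the annotated gene ends (circles) and within 1 kb of the promoter table's start (diamonds) for the 11 genes whose table start lies over 500 bp from the annotated 5′ end, in order of that distance in bp. Mrps23 moves from 29.4 to 79.7 and Mrpl36 from 93.1 to 89.4.

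Whether pracinostat shifted these genes relative to others was asked by comparing the ranks, written as normal scores, of the 4 pracinostat and 3 DMSO libraries. Ranks are relative, so a change of acetylation at every gene alike would not appear, and in sorted bulk cells a change in the cells' makeup and a change of acetylation per cell cannot be told apart. By limma with Benjamini-Hochberg adjustment over 13494 genes with a summit in at least 3 libraries, 0 of the 77 mitochondrial ribosomal protein genes in the fit passed an adjusted p of 0.05, as did 0 of all genes (0.0%, with 830 at an unadjusted p under 0.05). Their adjusted p ran from 0.757 to 1.00. At an unadjusted p under 0.05 there were 3 higher (3.90%, against 4.03% of all genes) and 1 lower (1.30%, against 2.12%), shares close to the background. The sign was positive in 47 (61.0%, against 56.2%) and negative in 30 (39.0%, against 43.8%). The median difference was 0.05 normal-score units, as it was over all genes, and 65 of 77 differences were within 0.5, with standard errors of 0.26 to 0.48. A normal-score unit would be 1 SD of all ranked genes without ties, and the ties among unmarked genes make the actual spread narrower.

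DMSO replicate 2 left 19 of the 78 genes unmarked. With all libraries the difference was positive in 16 of the 18 genes in the fit that were unmarked there, and in 31 of the 59 marked there. Without that library 38 of the 77 genes in the fit had a positive difference. No share of all genes was drawn up for that setting, so the count cannot be read as particular to these genes. A gene unmarked in DMSO replicate 2 stood at percentile 30.6, compared with 19.2 to 21.2 in the others, and 17 genes tied there at its lowest score, at 67.2. The macrophage list had library medians of 72.0 to 78.2 in DMSO and 74.1 to 86.6 in pracinostat, and the neutrophil, lymphocyte and oligodendrocyte lists differed as given above. The part of these 4 lists in the ranks of the mitochondrial ribosomal protein genes was not tested.

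Every pracinostat library stood above every DMSO library at 4 of 77 genes (5.19%, against 3.86% of all genes), namely Mrpl33, Mrpl39, Mrpl51 and Mrpl32. Mrpl33 (chr5:31613951-31622644), a small protein of the large subunit, had 56.6, 30.6 and 19.2 in DMSO and 68.1, 62.8, 57.9 and 73.3 in pracinostat. It was unmarked in DMSO replicates 2 and 3 and marked in all 4 pracinostat libraries, with a difference of 0.81 ± 0.29 (SE) and a limma adjusted p of 0.757. Read more widely, the difference at Mrpl33 shrank to 0.09 ± 0.24 with windows of 2.5 kb and to 0.03 ± 0.22 over the whole gene. Mrpl39, a large-subunit protein with no bacterial counterpart, had 51.5, 30.6 and 66.0 in DMSO and 72.0, 88.1, 73.6 and 66.3 in pracinostat. The highest DMSO and the lowest pracinostat library were almost level, and the difference was 0.72 ± 0.28 (SE; limma adjusted p = 0.771). Mrpl51 had 81.9, 67.2 and 81.9 against 85.7, 87.6, 89.4 and 89.98, a difference of 0.43 ± 0.30 (SE; limma adjusted p = 0.821), which was 0.28 without DMSO replicate 2. Mrpl32, with the values given above, differed by 0.74 ± 0.38 (SE; limma adjusted p = 0.815). Mrpl40 had the third-smallest p among the positive differences, with 69.8, 30.6 and 67.6 in DMSO and 80.3, 92.6, 55.6 and 78.1 in pracinostat. Its groups overlapped, and its difference fell from 0.65 to 0.32 without DMSO replicate 2, where Mrpl39 gave 0.48 and Mrpl33 0.76.

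Every pracinostat library stood below every DMSO library at 1 of 77 genes (1.30%, against 2.63% of all genes), Mrps31, a small-subunit protein specific to the mitochondrial ribosome. Mrps31 (chr8:22410449-22429669) had 46.8, 67.2 and 60.6 in DMSO and 20.8, 19.9, 20.7 and 40.3 in pracinostat, with no summit at its gene ends in pracinostat replicates 1 to 3. The difference was -0.89 ± 0.31 (SE; limma adjusted p = 0.757), the largest negative value among the 77. At the promoter table's start, 891 bp inside the annotated gene, Mrps31 was marked in 7 of 7 libraries, with 61.4, 66.1 and 59.1 in DMSO and 73.6, 69.7, 63.3 and 64.1 in pracinostat, and the difference was 0.15 ± 0.26 (SE). The direction at Mrps31 thus turned with the position read. Without DMSO replicate 2 the counts were 6 above (7.79%, against 6.41%), with Mrpl15 and Mrpl28 added, and 5 below (6.49%, against 6.97%), with Mrpl21, Mrpl24, Mrpl54 and Mrps18b added. These shares too were close to those of all genes.

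**Figure D5:**
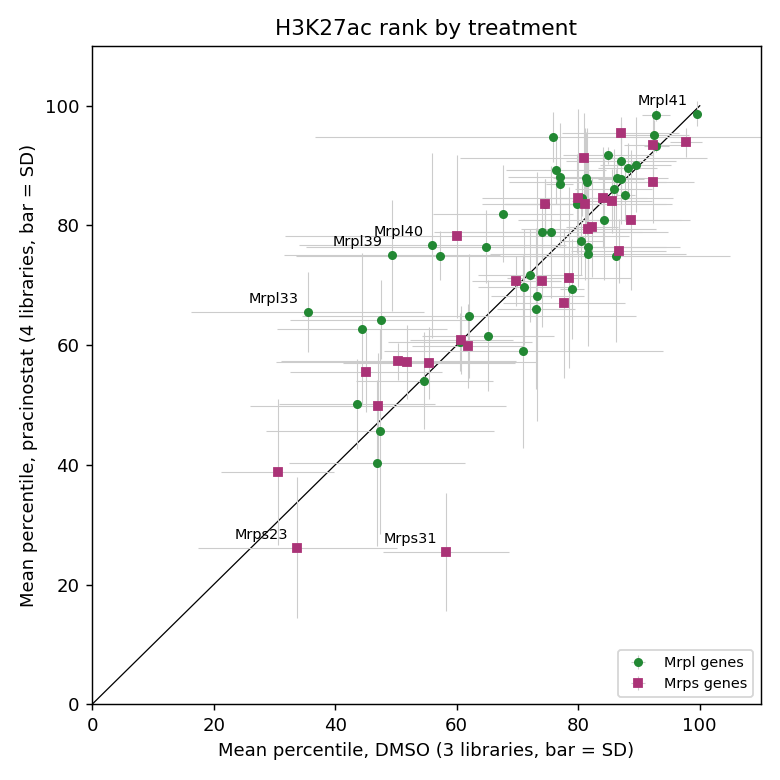
Mean percentile of each of the 78 genes in 4 pracinostat libraries against that in 3 DMSO libraries (circles, Mrpl; squares, Mrps; bars, SD; the line marks equal means). Mrpl33, Mrpl39 and Mrpl40 lie farthest above the line among the labelled genes and Mrps31 farthest below it.

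Genes that build and serve the same ribosome were read from lists. None of their members passed the limma test with Benjamini-Hochberg adjustment. For the signs below, 56.2% of all genes in the fit had a positive difference. The 5 mitoribosomal proteins under other symbols, among them the GTP-binding protein Dap3, had a median percentile of 78.2. Of these, 2 had a positive and 3 a negative difference. Translation factors (16 of 17 symbols found) had a median of 75.4, with 12 positive and 4 negative differences. The elongation factor Tufm averaged 77.6 ± 8.55 (SD, n = 3) in DMSO and 74.1 ± 7.68 (SD, n = 4) in pracinostat, and Lrpprc, which stabilises mitochondrial messenger RNA, 95.3 ± 7.04 and 98.7 ± 1.01. The 17 mitochondrial aminoacyl-tRNA synthetases had a median of 76.4, with 13 positive and 3 negative among the 16 in the fit. Ribosome assembly and rRNA modification genes (25) had a median of 75.4, with 15 positive and 10 negative differences. In that list Gtpbp10, an assembly GTPase, had 69.8, 97.7 and 78.6 in DMSO and 61.9, 55.9, 65.3 and 62.5 in pracinostat (limma adjusted p = 0.757). Its DMSO libraries all stood above its pracinostat libraries. In this list the groups did not overlap at 2 genes with pracinostat lower and at 2 with pracinostat higher. Over all genes the shares were 2.63% and 3.86%. Tfb1m, the methyltransferase of the small ribosomal RNA, was among those with pracinostat higher. It had 60.6, 30.6 and 62.5 against 75.6, 93.0, 63.5 and 66.3 (limma adjusted p = 0.775). The 13 genes of mitochondrial DNA transcription and replication ranked lower, with a median of 67.0 and Mterf2 unmarked in every library, and 6 of the 11 in the fit had a positive difference.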

How the data were processed

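H3K27ac and IgG CUT&Tag was deposited for 14 libraries as 1 list of peak summits each. The submitters' processing notes name mm10 as the build and list MACS2 2.2.9.1, HOMER, Bowtie2 and DESeq2 as tools, with no role for any. The deposited score is a −log10 p-value or q-value, which of them is not stated, and it had not been normalized between libraries.

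Genes came from the RefSeq table of GRCm38.p6, and starts, strands and sequences from its promoter table. Each gene took its highest summit score within 1 kb of either end, so a library with fewer summits has more ties. Ranks within a library (ties averaged, unmarked genes tied at the bottom) became percentiles and normal scores. Genes marked in 3 or more of the 7 libraries (13494) were compared with limma 3.58.1 (trend, robust; R 4.3.3, statmod 1.5.0), with Benjamini-Hochberg adjustment at 0.05. The code of this step was run on simulated normal values with a common SD and no ties. Those values differ from the tied ranks here, so that run does not show how the comparison performs on these libraries. No depth-based interval could be given. Genes were named by the smallest p (6 per direction), the highest and lowest means (5 each), groups that do not overlap, IgG summits and role. The members and lists were chosen with earlier results of these data known. Alternatives were other windows, filters, thresholds, weights, covariates and omitted libraries.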

Additional observations from a re-analysis of the deposited data

Results flagged for a closer look

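Among the 37 named genes, 5 had 1 of 4 pracinostat libraries far from the other 3 by Dixon's test. That test flags about 1 in 20 groups by chance when values are normally distributed. The rate may not hold where unmarked libraries sit at the floor, as at Mrps31 and Mrps2. Mrpl3 stood at percentile 43.9 in pracinostat replicate 2 and at 66.3 to 70.6 in the others. Mrps31 stood at 40.3 in pracinostat replicate 4, where the gene was marked, and at 19.9 to 20.8 in the others, where it was not. Mrps7 stood at 83.6 in pracinostat replicate 4 against 72.0 to 73.7. Mrpl41 stood at 95.6 in pracinostat replicate 1 against 99.4 to 99.9. Mrps2 stood at 20.7 in pracinostat replicate 3, where it was unmarked, against 43.8 to 46.8.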

How the results depend on the processing

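Over 252 recalculations of the difference at 13 named genes, 246 kept their direction, 6 turned and 0 passed the threshold. The 13 were chosen from the same data by smallest p or by groups that did not overlap, which favours a kept direction. The other named genes were not part of this count. Between gene ends and the promoter table's starts, the low-ranked Mrps2 went from 0.22 to -0.60 and Mrpl22 from 0.17 to -0.06. Mrpl23 went from -0.06 to 0.25 and Mrpl24 from -0.18 to 0.23. Mrpl45 turned to 0.53 with windows of 500 bp, to 0.0162 with the list length as a covariate and to 0.0467 without DMSO replicate 2 (-0.85 to 0.0467 with 1 library left out). Mrps31 turned to 0.19 with windows of 2.5 kb, to 0.24 over the whole gene and to 0.15 at the promoter table's starts. At Mrpl33 the difference kept its sign but went from 0.81 to 0.09 with windows of 2.5 kb and to 0.03 over the whole gene. The causes were not tested. No mitochondrial ribosomal protein gene passed under any of 20 settings. Of all genes, 3 passed with a summit needed in at least 1 library, 2 with no filter, 1 with the 18000 highest summits, 1 with scores of at least 3, and 0 to 1 when 1 library was left out (1 without DMSO replicate 3). The replicate numbers did not pair the libraries (correlations of deviations between same-numbered libraries from -0.0472 to 0.0176), and with the replicate block 3 genes passed, none of them a mitochondrial ribosomal protein gene. At an unadjusted p under 0.05, the 4 mitochondrial ribosomal protein genes became 1 with windows of 500 bp, 1 with 2.5 kb, 0 with the 18000 highest summits and 2 to 6 with 1 library left out (2 without pracinostat replicate 2), and the 830 genes in all became 375 with the 18000 highest summits and 634 to 1255 with 1 library left out (1255 without DMSO replicate 3). The median percentile of the members' group means, 76.7 in DMSO and 77.8 in pracinostat, became 72.0 and 73.6 over the whole gene, 62.9 and 64.7 with ranks among marked genes, 66.5 and 68.6 with the 18000 highest summits, and 74.3 in DMSO with scores of at least 3. The share of members marked in pracinostat became 90.4% with windows of 500 bp, 99.7% with 2.5 kb, 93.6% with scores of at least 3 and 57.1% (DMSO 54.3%) with the 18000 highest summits, where 19 genes were marked in every library because fewer summits were used. Without DMSO replicate 2, the count of genes with every pracinostat library below every DMSO library went from 1 to 5. DMSO replicate 2 had the shortest list of summits, for which the reads obtained are not known, and the treatment comparison rests on 3 against 4 libraries.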

Other observations

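Cytosolic ribosomal protein genes gave a reference for housekeeping translation. Of the 81 genes, 69 (85.2%) were marked in all 7 libraries, and Rpl10l, a retrogene copy of Rpl10, was marked in none. Their library medians were 80.5 ± 3.59 (SD, n = 3) in DMSO and 80.6 ± 2.78 (SD, n = 4) in pracinostat. None passed the limma test after Benjamini-Hochberg adjustment, and among the 79 in the fit 2 higher and 4 lower genes had an unadjusted p under 0.05, where the shares of all genes were 4.03% and 2.12%.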
